A study of Mus musculus with 16 samples.

Results

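The genes described here are 33 inflammatory cytokine and NF-kB feedback genes, chosen by name: cytokines, prostaglandin enzymes, NF-kB subunits, their inhibitors, signalling adaptors and other genes that NF-kB is known to induce. Of the 33, 32 were measured among 18194 genes, and Ripk2 is not analysed here. Each gene is represented by its probe set of highest mean intensity. The RNA came from cells labelled as tumour-associated macrophages (TAMs) and washed from the peritoneal cavity of C57BL/6N females that carried ID8-luc cells, a luciferase-marked mouse ovarian cancer line injected into the cavity. Cells had been sorted for the leukocyte marker CD45, the integrin CD11b and the macrophage marker encoded by Adgre1, and then divided by CCR2, the receptor for the monocyte chemoattractant CCL2, and 16 Affymetrix mouse arrays formed 4 groups of 4.

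The groups are CCR2+ cells of RbpjiΔEC mice, CCR2+ cells of control mice, CCR2- cells of RbpjiΔEC mice and CCR2- cells of control mice. RbpjiΔEC denotes inducible loss in endothelial cells of Rbpj, through which activated Notch receptors act on DNA. The labels give a single protocol for all groups, with 1 mg tamoxifen by mouth at 8 to 12 weeks of age, tumour cells 3 weeks later and 4 weeks of tumour growth. They do not name the Cre driver or the alleles of the controls, and beyond this shared protocol do not say separately whether control mice received tamoxifen. The deletion is in endothelium, so the sorted cells are not the cells in which Rbpj was targeted. Rbpj averaged 11.43 in CCR2+ RbpjiΔEC and 11.36 in CCR2+ control arrays, and 10.35 in CCR2- RbpjiΔEC and 10.44 in CCR2- control arrays (log2 intensity, n = 4 each), which is therefore no check of the genotype labels.

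NF-kB is a family of dimeric transcription factors held inactive in the cytoplasm by inhibitors of the IkB family. Signals from TNF receptors and Toll-like receptors lead to destruction of the inhibitor, and the freed dimers enter the nucleus and switch on cytokines, adhesion molecules and survival factors. They also switch on their own brakes, among them IkB-alpha and A20, so that the response ends. A slower, non-canonical branch, driven by receptors such as those for lymphotoxin and BAFF, processes the Nfkb2 product and works through RelB. In macrophages the pathway is best known for TNF, IL-6 and IL-12 production, and in B cells for survival.

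The promoters of 5 members are shown because they are those of the 2 members with an NF-kB motif and the largest differences between the sort labels (Il6 and Ltb), of the classical feedback inhibitor (Nfkbia), and of the members with the largest difference in each direction among those searched that held no match (Tnfaip2 and Traf1). Each run is the 250 bases before the annotated start, from RefSeq on GRCm38.p6, 5′ to 3′ on the strand of the gene, and capitals mark the match to the motif.
Il6, chr5:30012864-30013113, plus strand: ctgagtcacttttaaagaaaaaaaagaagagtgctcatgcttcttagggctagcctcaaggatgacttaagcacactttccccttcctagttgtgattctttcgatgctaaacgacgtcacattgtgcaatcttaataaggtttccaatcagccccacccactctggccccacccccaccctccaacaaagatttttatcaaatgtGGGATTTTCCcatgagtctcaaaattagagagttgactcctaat
Ltb, chr17:35194257-35194506, plus strand: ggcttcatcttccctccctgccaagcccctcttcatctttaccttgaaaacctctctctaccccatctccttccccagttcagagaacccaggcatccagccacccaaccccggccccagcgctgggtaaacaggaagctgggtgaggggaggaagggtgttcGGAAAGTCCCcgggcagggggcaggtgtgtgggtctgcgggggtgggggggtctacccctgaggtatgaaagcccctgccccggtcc
Nfkbia, chr12:55492648-55492897, minus strand: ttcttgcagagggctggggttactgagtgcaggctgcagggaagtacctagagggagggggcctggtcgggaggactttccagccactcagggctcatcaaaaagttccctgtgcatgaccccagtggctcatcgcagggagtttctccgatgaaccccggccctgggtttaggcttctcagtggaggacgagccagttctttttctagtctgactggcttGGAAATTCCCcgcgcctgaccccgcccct
Tnfaip2, chr12:111442411-111442660, plus strand: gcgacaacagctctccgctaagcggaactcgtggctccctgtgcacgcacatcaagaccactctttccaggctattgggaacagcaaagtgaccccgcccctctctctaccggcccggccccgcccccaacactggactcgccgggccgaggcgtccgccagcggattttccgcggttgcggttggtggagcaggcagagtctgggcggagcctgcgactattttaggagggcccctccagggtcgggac
Traf1, chr2:34961773-34962022, minus strand: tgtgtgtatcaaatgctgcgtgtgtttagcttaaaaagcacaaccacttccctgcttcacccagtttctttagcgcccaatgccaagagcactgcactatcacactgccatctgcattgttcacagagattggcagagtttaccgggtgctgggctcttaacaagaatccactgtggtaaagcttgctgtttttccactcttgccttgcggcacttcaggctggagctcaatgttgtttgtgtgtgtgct

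The motif searched was GGGNNNTTCC on both strands, where N is any base, and overlapping matches were allowed. It was found in 8 of the 25 members in the promoter table (32%): Il6, Ltb, Nfkb2, Rel, Nfkbia, Nfkbie, Tnfaip3 and Tnip1. Among 27025 genes with a promoter in that table, 5.31% held it in at least 1 promoter, and of 32851 promoters 4.65%. In Il6 the match began 44 bases before the start and read GGGATTTTCC on the strand of the gene. In Ltb it began 87 bases and in Nfkbia 29 bases before the start, on the opposite strand, where it reads GGGACTTTCC and GGGAATTTCC. The other 17 members, Tnf, Il12a, Il12b, Ptges, Icam1 and Sod2 among them, held no run of these letters in this window. Il10, Il23a, Osm, Relb, Nfkbiz, Ripk2, Map3k8 and Cd83 are not in the table. Ltb, Tnf and Lta are neighbours on chromosome 17, within 11072 bases.

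The arrays themselves set limits. Mean intensity per array, as deposited, spanned 821 to 827 for the CCR2+ label and 481 to 762 for the CCR2- label. The sort label and the way the columns were made therefore cannot be told apart. CCR2- control array 1 had the lowest mean, and CCR2- control array 3 had a lowest intensity of 99.9 against 35.2 to 52.7 in the other CCR2- arrays. The gene of the sort marker goes against the labels. Ccr2 averaged 7.69 in CCR2+ RbpjiΔEC and 7.99 in CCR2+ control arrays, against 8.94 in CCR2- RbpjiΔEC and 9.99 in CCR2- control arrays. The gate genes Adgre1 (13.24 and 13.25 against 9.08 and 9.21) and Itgam (which encodes CD11b; 12.62 and 12.71 against 9.22 and 9.46, groups in the same order) were higher in the CCR2+ arrays. "CCR2+ arrays" and "CCR2- arrays" below therefore mean the deposited label only.

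Markers of several cell types, though not of all those listed, moved with the label beside every label difference given below. In both genotypes 12 of 12 measured B cell markers were called as lower under the CCR2+ label, and their summed intensity was 1884 to 2352 in CCR2+ RbpjiΔEC and 2078 to 2371 in CCR2+ control arrays, against 62202 to 66470 in CCR2- RbpjiΔEC and 63489 to 65892 in CCR2- control arrays. Fcrla was the one B cell marker at the background level, in CCR2+ RbpjiΔEC arrays. All 11 large peritoneal macrophage markers were higher, with sums of 85077 to 89906 in CCR2+ RbpjiΔEC and 77259 to 93224 in CCR2+ control arrays, against 4025 to 4781 in CCR2- RbpjiΔEC and 4520 to 5013 in CCR2- control arrays. Dendritic cell markers summed to 1084 to 1214 and 1039 to 1131 against 4813 to 6494 and 5030 to 6340, and T and NK cell markers to 755 to 840 and 791 to 862 against 8146 to 9210 and 7750 to 8769, in the same order, with Cd3e at the background level in the CCR2+ arrays. Of the 7 dendritic cell markers 5 were called as lower in RbpjiΔEC and 6 in control mice. Of the 7 T and NK cell markers 3 were called as lower in RbpjiΔEC mice (median difference of the list −0.23) and 2 in control mice (median −0.16). Monocyte and small peritoneal macrophage markers were called both ways, 2 of 6 higher and 2 lower in RbpjiΔEC mice and 1 higher and 3 lower in control mice. Of the 7 neutrophil markers 0 were called in either genotype. Of the 5 mast cell markers 1 was called as lower in RbpjiΔEC and 2 in control mice. The 18S ribosomal RNA control averaged 13.1 in CCR2+ RbpjiΔEC and 13.4 in CCR2+ control arrays, against 12.53 in CCR2- RbpjiΔEC and 12.49 in CCR2- control arrays (log2 as deposited, exact permutation p = 0.0286 in RbpjiΔEC and 0.0857 in control mice). The part of these markers and of RNA quality in the label differences was not tested. In RNA of sorted populations, fewer cells of a type and less RNA per cell cannot be told apart.

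The comparison of CCR2+ with CCR2- arrays asks how these genes differ between the sorted subsets, and was made within each genotype. The members split both ways. In RbpjiΔEC mice 8 members read higher and 11 lower under the CCR2+ label, 19 of 32 in all, beside 39.1% of all genes (18.1% higher, 21% lower). In control mice 9 were higher and 9 lower, 18 of 32, beside 40.8% of all genes (19.4% higher, 21.4% lower). Calls are at limma adjusted p under 0.05 over all genes. Of the members 17 were called the same way in both genotypes (53.1%), beside 33% of all genes. At least a 2-fold difference was called for 10 members in each genotype, beside 13.4% of all genes in RbpjiΔEC mice and 13.9% in control mice. The median difference of the members was −0.14 in RbpjiΔEC and −0.04 in control mice (all genes −0.03 in both), and the median absolute difference was 0.573 and 0.467 (all genes 0.246 and 0.256), on the log2 scale. Without normalization between arrays 13 members were higher and 4 lower in RbpjiΔEC mice, beside 31.4% of all genes higher and 6.56% lower. In control mice it was 10 and 4, beside 25.3% and 9.49%. After median centring the split was 8 and 8 in RbpjiΔEC mice (all genes 19.4% higher, 15.6% lower), and 9 and 7 in control mice (24.2% and 14.3%).

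**Figure D1:**
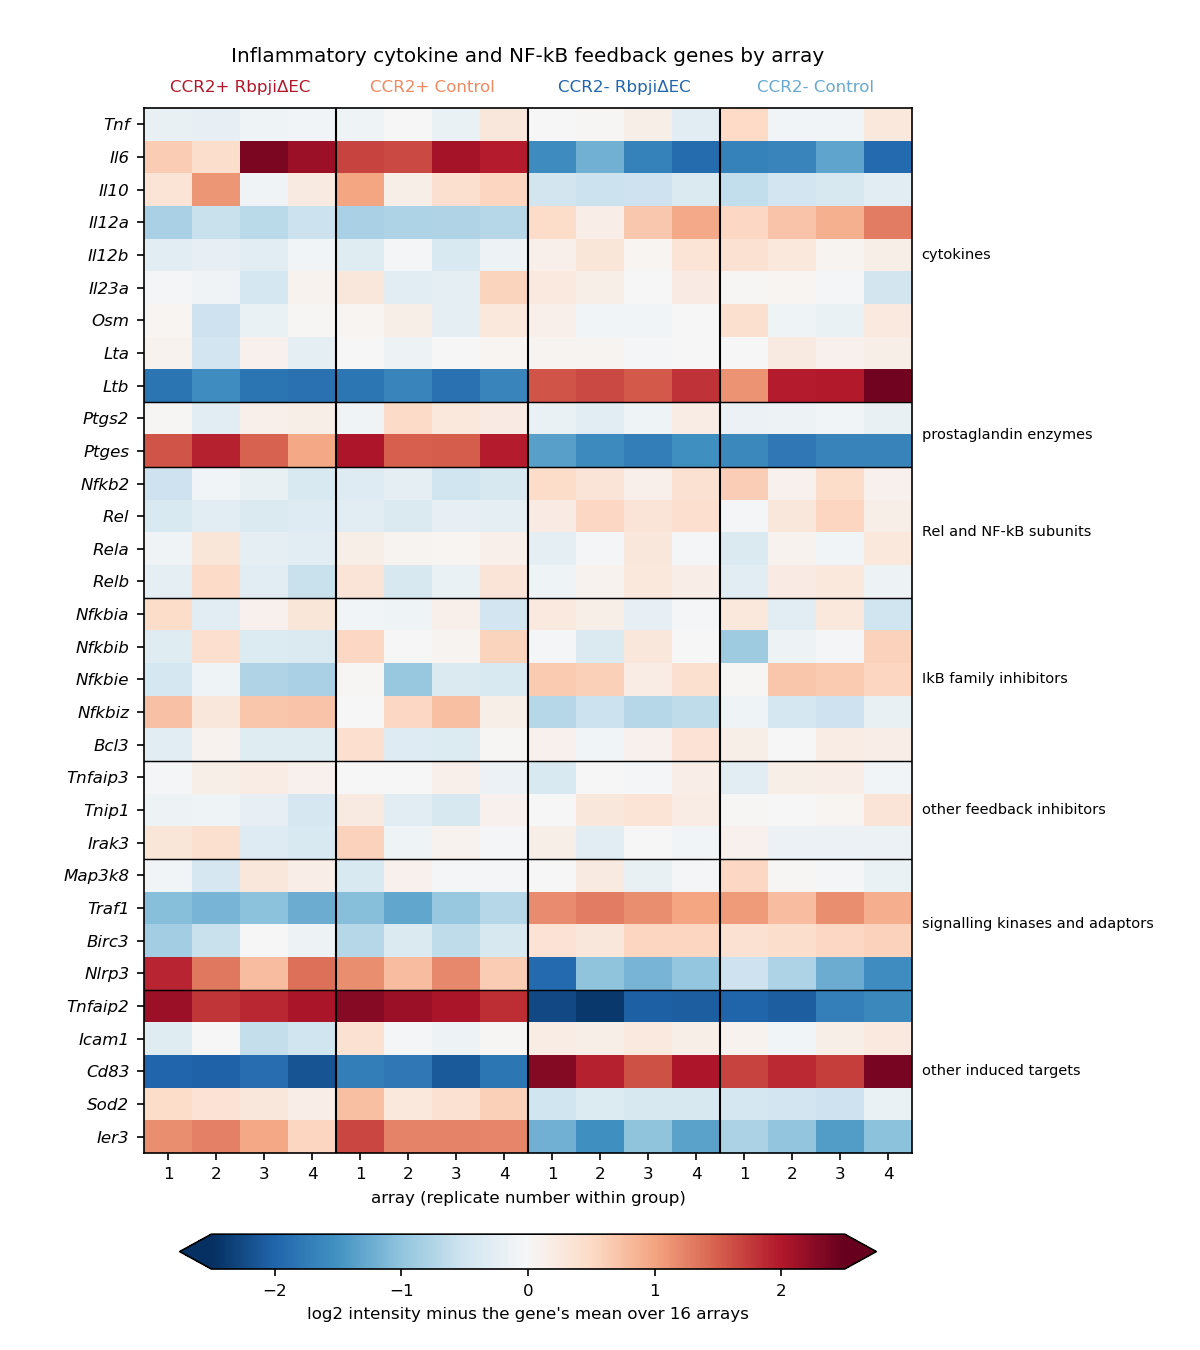
Heat map of the 32 measured members (rows, grouped by role) in the 16 arrays (columns, 4 per group): colour is log2 intensity minus the mean of that gene over all arrays, red above and blue below, with the scale ending at 2.5 either way. Tnfaip2, Il6, Ptges, Nlrp3 and Ier3 are red in the 8 CCR2+ arrays and blue in the 8 CCR2- arrays, and Cd83, Ltb, Traf1 and Il12a are the other way round. In the Il6 row CCR2+ RbpjiΔEC arrays 1 and 2 are paler than the other 6 CCR2+ arrays.

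Among the cytokines Il6, which encodes interleukin-6, was higher in the CCR2+ arrays. Il6 read 8.49, 8.29, 10.21 and 9.99 in CCR2+ RbpjiΔEC arrays and 9.54, 9.50, 9.93 and 9.81 in CCR2+ control arrays, against 6.28, 6.65, 6.17 and 5.92 in CCR2- RbpjiΔEC arrays and 6.16, 6.20, 6.52 and 5.91 in CCR2- control arrays. Every CCR2+ array lay above every CCR2- array, and the CCR2- means were at or below the background set by a bacterial trp control, which read 6.35 to 6.51. Il6 differed by 2.99 in RbpjiΔEC mice (adjusted p = 1.88e-06) and by 3.50 in control mice (adjusted p = 2.80e-07; SE 0.34 for each). The fold between group means was also taken with CCR2- arrays below the highest trp reading set to that reading. It was 6.51 in RbpjiΔEC mice and 9.10 in control mice. These folds allow for the background but not for the spread between arrays, so they are not lower limits. CCR2+ RbpjiΔEC arrays 1 and 2, at 8.49 and 8.29, lay below the mean of their group.

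Il10, an anti-inflammatory cytokine, was higher in the CCR2+ arrays. Il10 read 7.25, 8.02, 6.82 and 7.13 in CCR2+ RbpjiΔEC arrays and 7.89, 7.06, 7.31 and 7.46 in CCR2+ control arrays, against 6.45, 6.37, 6.39 and 6.55 in CCR2- RbpjiΔEC arrays and 6.30, 6.44, 6.51 and 6.64 in CCR2- control arrays. The groups did not overlap, and both CCR2- means lay inside the trp range. On the log2 scale the difference was 0.87 in RbpjiΔEC mice and 0.96 in control mice (SE 0.21, adjusted p = 0.00274 and 0.00115). With the highest trp reading used as for Il6, the fold between Il10 group means was 1.73 in RbpjiΔEC mice and 1.85 in control mice. These folds are not lower limits either, as CCR2+ RbpjiΔEC array 3 read only 6.82.

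Ltb, which encodes lymphotoxin beta, the membrane anchor of the lymphotoxin heterotrimer, showed the largest negative difference of the cytokines. Ltb read 6.83, 7.11, 6.84 and 6.80 in CCR2+ RbpjiΔEC arrays and 6.86, 7.01, 6.80 and 7.01 in CCR2+ control arrays, against 10.23, 10.32, 10.19 and 10.46 in CCR2- RbpjiΔEC arrays and 9.79, 10.63, 10.64 and 11.08 in CCR2- control arrays. The CCR2+ arrays lay within 0.4 units of each other and more than 2 units under the lowest CCR2- array. In RbpjiΔEC mice Ltb differed by −3.40 and in control mice by −3.62 (SE 0.19, adjusted p = 2.19e-10 and 9.88e-11).

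Il12a and Il12b encode the chains of interleukin-12, and the Il12b chain is shared with interleukin-23. Il12a read 7.22, 7.48, 7.36 and 7.51 in CCR2+ RbpjiΔEC arrays and 7.23, 7.26, 7.29 and 7.33 in CCR2+ control arrays, against 8.49, 8.20, 8.72 and 8.98 in CCR2- RbpjiΔEC arrays and 8.55, 8.75, 8.93 and 9.33 in CCR2- control arrays. Il12a did not overlap between the labels. The difference was −1.20 (SE 0.16) in RbpjiΔEC mice and −1.61 (SE 0.16) in control mice, with adjusted p = 1.16e-05 and 3.89e-07. Il12b read 7.56, 7.61, 7.56 and 7.76 in CCR2+ RbpjiΔEC arrays and 7.51, 7.78, 7.45 and 7.69 in CCR2+ control arrays, against 7.95, 8.13, 7.88 and 8.17 in CCR2- RbpjiΔEC arrays and 8.21, 8.09, 7.89 and 7.96 in CCR2- control arrays. Il12b did not overlap either, at a much smaller difference. Il12b differed by −0.41 in RbpjiΔEC mice (adjusted p = 0.00365) and by −0.43 in control mice (adjusted p = 0.00230; SE 0.10 for each). It was not called without normalization between arrays (−0.12 in RbpjiΔEC and −0.38 in control mice) or, in RbpjiΔEC mice, as the mean of its probe sets (−0.31).

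Tnf, the archetypal inflammatory cytokine, was not called. Tnf read 7.14, 7.13, 7.23 and 7.27 in CCR2+ RbpjiΔEC arrays and 7.22, 7.34, 7.17 and 7.61 in CCR2+ control arrays, against 7.33, 7.36, 7.47 and 7.06 in CCR2- RbpjiΔEC arrays and 7.82, 7.26, 7.26 and 7.59 in CCR2- control arrays. The groups overlapped. On the log2 scale the difference was −0.12 in RbpjiΔEC mice and −0.15 in control mice (SE 0.13, adjusted p = 0.528 and 0.409). The 95% intervals of the difference were −0.40 to 0.16 in RbpjiΔEC and −0.43 to 0.13 in control mice. Its neighbour Lta, which encodes lymphotoxin alpha, differed by −0.15 and −0.14, so that of the 3 genes of this cluster Ltb was called and Tnf and Lta were not. Osm, which encodes oncostatin M, and Il23a, the chain particular to interleukin-23, were not called in either genotype, with differences of −0.15 and −0.27 in RbpjiΔEC and −0.03 and 0.19 in control mice.

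**Figure D2:**
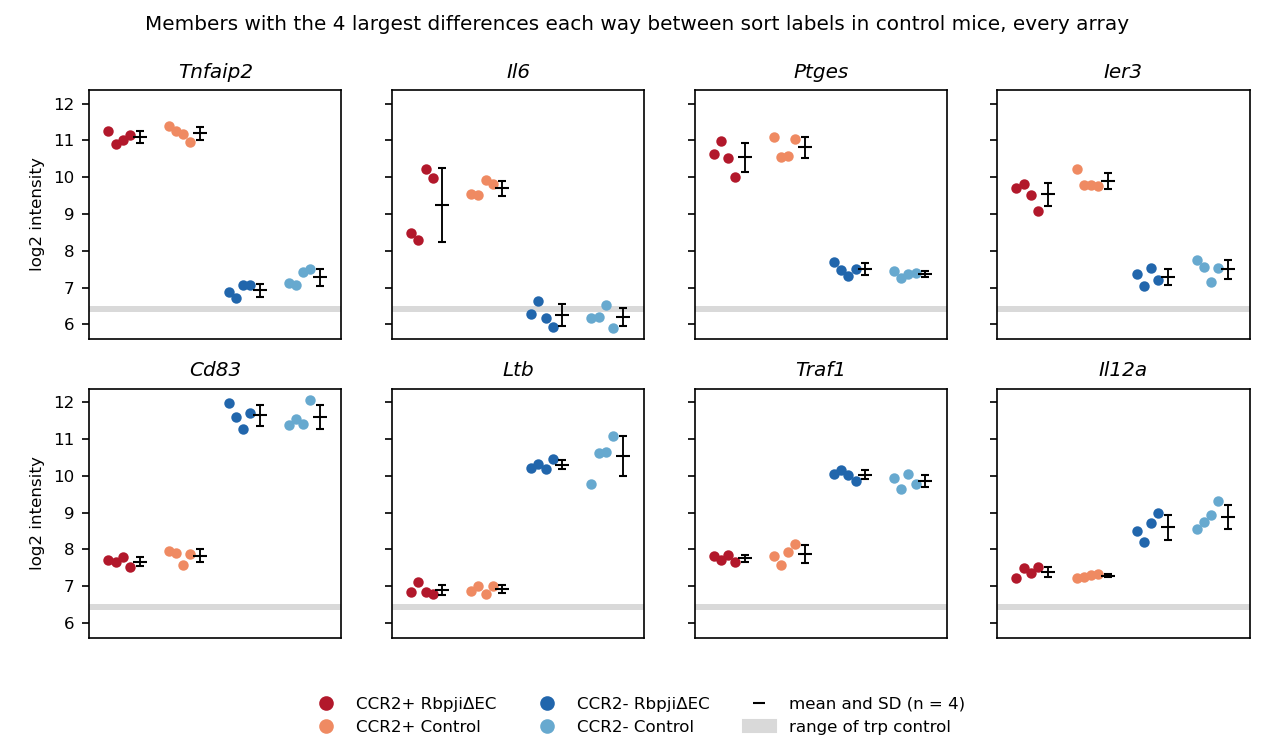
Log2 intensity (y axis) of the 4 members with the largest positive and the 4 with the largest negative label differences among those called in control mice by the naming rule, in every array: points are arrays, black marks are group means with SD (n = 4), and the grey band is the range of the trp control. In the upper row the CCR2+ arrays lie above the CCR2- arrays, with the CCR2- arrays of Il6 in or near the band, and in the lower row they lie below.

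Of the prostaglandin enzymes Ptges, the inducible synthase that makes prostaglandin E2, was higher in the CCR2+ arrays. Ptges read 10.63, 10.98, 10.52 and 10.02 in CCR2+ RbpjiΔEC arrays and 11.08, 10.56, 10.58 and 11.03 in CCR2+ control arrays, against 7.70, 7.47, 7.33 and 7.52 in CCR2- RbpjiΔEC arrays and 7.44, 7.27, 7.38 and 7.39 in CCR2- control arrays. Every CCR2+ array exceeded every CCR2- array by more than 2 units. In RbpjiΔEC mice Ptges differed by 3.03 and in control mice by 3.44 (SE 0.17, adjusted p = 2.57e-10 and 5.15e-11). Its other probe sets differed by 3.54 and 2.02 in RbpjiΔEC and by 3.52 and 2.28 in control mice. Ptgs2, the inducible cyclooxygenase that supplies the substrate of that synthase, averaged 6.20 in CCR2+ RbpjiΔEC and 6.40 in CCR2+ control arrays, against 6.10 in CCR2- RbpjiΔEC and 6.06 in CCR2- control arrays. All 4 means lay in or under the trp range, so no fold is given. Its control difference of 0.34 passed the test (adjusted p = 0.0412) with overlapping groups, and failed without any 1 of 7 of the 8 control arrays (CCR2+ control 2, 3 or 4 or any CCR2- control array, adjusted p 0.0565 to 0.141), after median centring (0.14), without normalization (0.20) and as the mean of its probe sets (0.20).

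The Rel and NF-kB subunits showed small differences. Nfkb2, the precursor of the non-canonical subunit, was lower in the CCR2+ arrays: its means were 9.22 in CCR2+ RbpjiΔEC and 9.15 in CCR2+ control arrays, against 9.83 in CCR2- RbpjiΔEC and 9.83 in CCR2- control arrays. The difference was −0.61 (SE 0.13) in RbpjiΔEC mice and −0.68 (SE 0.13) in control mice, with adjusted p = 0.00106 and 0.000412. Rel, which encodes c-Rel, a subunit abundant in lymphocytes, was lower as well, with means of 9.68 in CCR2+ RbpjiΔEC and 9.74 in CCR2+ control arrays, against 10.38 in CCR2- RbpjiΔEC and 10.24 in CCR2- control arrays. Rel differed by −0.70 in RbpjiΔEC mice (adjusted p = 5.86e-05) and by −0.50 in control mice (adjusted p = 0.00122; SE 0.11 for each). Median centring reduced the differences to −0.39 for Nfkb2 in both genotypes and to −0.43 (RbpjiΔEC) and −0.13 (control, not called, adjusted p = 0.494) for Rel, and neither gene was called without normalization. As the mean of its probe sets Nfkb2 differed by −0.42 in control mice. The other probe set of Nfkb2 differed by −0.42 in RbpjiΔEC (exact permutation p = 0.114) and −0.17 in control mice (exact permutation p = 0.514). Rela, the main activating subunit, and Relb, its non-canonical counterpart, were not called, at −0.06 and −0.25 in RbpjiΔEC and 0.11 and −0.01 in control mice. Without normalization Rela was called as higher in both genotypes (0.57 in RbpjiΔEC, 0.63 in control mice), and with array weights Relb was called in RbpjiΔEC mice (−0.45, adjusted p = 0.0439).

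The genes of the IkB family went different ways. Nfkbiz encodes IkB-zeta, an atypical nuclear member that acts as a cofactor for secondary response genes such as Il6, and was higher in the CCR2+ arrays. Nfkbiz read 10.69, 10.23, 10.65 and 10.66 in CCR2+ RbpjiΔEC arrays and 9.95, 10.47, 10.70 and 10.10 in CCR2+ control arrays, against 9.25, 9.42, 9.24 and 9.32 in CCR2- RbpjiΔEC arrays and 9.85, 9.51, 9.44 and 9.77 in CCR2- control arrays. On the log2 scale the difference was 1.25 in RbpjiΔEC mice and 0.66 in control mice (SE 0.15, adjusted p = 4.09e-06 and 0.00212). The labels did not overlap in either genotype, and its other probe sets differed by 0.88 and 1.20 in RbpjiΔEC and by 0.73 and 0.73 in control mice. The control difference was 1.00 after median centring and 1.06 without normalization. Nfkbie, which encodes IkB-epsilon, a classical cytoplasmic inhibitor, was lower. Nfkbie read 9.11, 9.44, 8.79 and 8.73 in CCR2+ RbpjiΔEC arrays and 9.58, 8.60, 9.19 and 9.17 in CCR2+ control arrays, against 10.19, 10.14, 9.74 and 9.95 in CCR2- RbpjiΔEC arrays and 9.58, 10.24, 10.20 and 10.09 in CCR2- control arrays. In RbpjiΔEC mice Nfkbie differed by −0.98 and in control mice by −0.89 (SE 0.20, adjusted p = 0.000897 and 0.00197). The groups overlapped in control mice, through CCR2+ control array 1 and CCR2- control array 1, which both read 9.58, and the gene was not called without normalization (−0.48 in RbpjiΔEC, −0.54 in control mice). Its other probe set differed by −0.99 in RbpjiΔEC (exact permutation p = 0.0286) and −0.44 in control mice (exact permutation p = 0.171). Bcl3, an atypical nuclear member, and Nfkbib, which encodes IkB-beta, were not called, at −0.33 and −0.12 in RbpjiΔEC and −0.18 and 0.40 in control mice. Bcl3 was called without CCR2+ control array 1 (−0.33 in RbpjiΔEC, −0.34 in control mice), without CCR2+ RbpjiΔEC array 2 (−0.42, RbpjiΔEC mice) and with array weights (−0.41, RbpjiΔEC mice), and Nfkbib without CCR2- control array 4 (0.63, control mice).

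Nfkbia, which encodes IkB-alpha, a rapidly induced inhibitor of NF-kB, depended on the probe set. The representative probe set differed by 0.11 in RbpjiΔEC and −0.07 in control mice and was not called, but without normalization between arrays it was called as higher in RbpjiΔEC mice (0.55, adjusted p = 0.0129). The other 4 were higher in the CCR2+ arrays in both genotypes: in the order of the plotted panels by 0.43, 1.00, 0.55 and 0.86 in RbpjiΔEC mice and by 0.45, 0.76, 0.38 and 0.90 in control mice. In exact permutation tests, two-sided, those 4 reached p = 0.0286, the smallest that 4 against 4 arrays can give, in RbpjiΔEC mice. In control mice the sets with differences of 0.76 and 0.90 reached it too, and those with 0.45 and 0.38 gave an exact permutation p of 0.0571. As the mean of its 5 probe sets Nfkbia was called as higher, by 0.59 in RbpjiΔEC mice (adjusted p = 0.000301) and 0.49 in control mice (adjusted p = 0.00159), which is the opposite sign to the representative probe set in control mice. Of 14 members with several probe sets, all probe sets had the same sign in 14 in RbpjiΔEC mice and in 12 in control mice, where Nfkbia and Nfkbib were mixed.

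**Figure D3:**
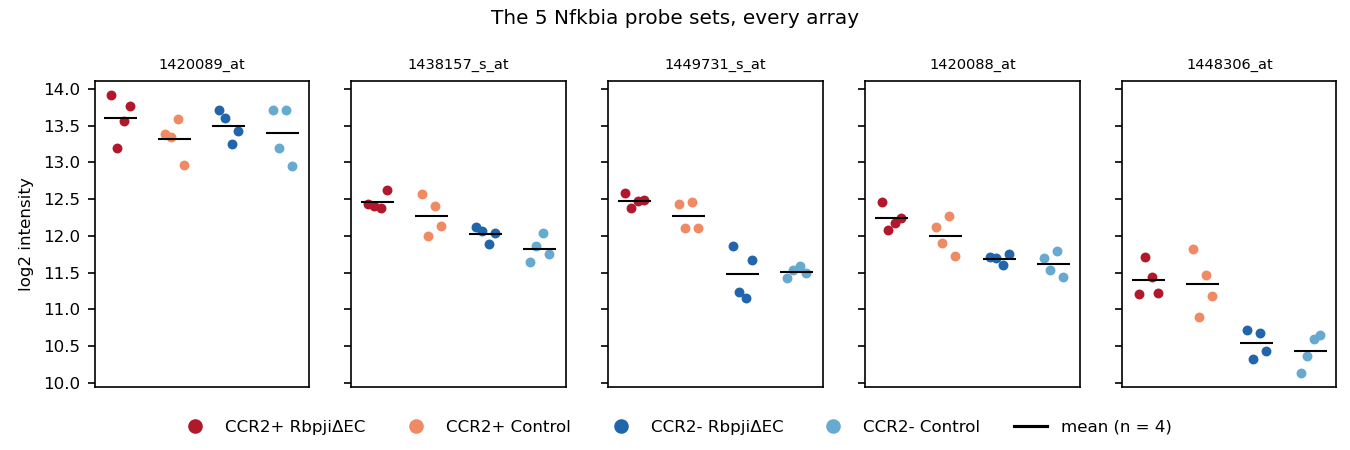
Log2 intensity (y axis) of each of the 5 Nfkbia probe sets (panels) in every array, coloured by group, with the group mean as a line (n = 4). The CCR2+ and CCR2- arrays overlap in the first panel, the representative probe set, and in the other 4 panels the CCR2+ means lie above the CCR2- means.

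Of the other feedback inhibitors, Tnfaip3, which encodes the ubiquitin-editing enzyme A20, and Irak3, which encodes the receptor-kinase decoy IRAK-M, were not called (0.16 and 0.04 in RbpjiΔEC, 0.01 and 0.21 in control mice). The other, dimmer probe set of Tnfaip3 was higher by 0.33 in RbpjiΔEC (exact permutation p = 0.114) and 0.38 in control mice (exact permutation p = 0.0286). Irak3 was called as higher in control mice after median centring (0.68, adjusted p = 0.0138), and without normalization in both genotypes (0.68 in RbpjiΔEC, 0.74 in control mice), where Tnfaip3 was called in RbpjiΔEC mice (0.72). Tnip1, which encodes the A20 partner ABIN-1, differed between the CCR2+ and CCR2- arrays of RbpjiΔEC mice by −0.42 (SE 0.13, adjusted p = 0.0208) and was not called in control mice (−0.18). That call was lost without CCR2- RbpjiΔEC array 2 (−0.39, adjusted p = 0.0542) or 3 (−0.37, adjusted p = 0.0641), without CCR2+ RbpjiΔEC array 4 (−0.35, adjusted p = 0.0720), after median centring (−0.22) and without normalization (0.073).

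Among the signalling adaptors Traf1, a TNF receptor-associated factor that NF-kB induces in lymphocytes, was lower in the CCR2+ arrays. Traf1 read 7.82, 7.72, 7.86 and 7.65 in CCR2+ RbpjiΔEC arrays and 7.82, 7.59, 7.92 and 8.16 in CCR2+ control arrays, against 10.06, 10.15, 10.03 and 9.86 in CCR2- RbpjiΔEC arrays and 9.94, 9.66, 10.04 and 9.78 in CCR2- control arrays. The labels were more than 1 unit apart in every array. The difference was −2.26 (SE 0.12) in RbpjiΔEC mice and −1.98 (SE 0.12) in control mice, with adjusted p = 8.87e-11 and 5.08e-10. Birc3, which encodes the ubiquitin ligase cIAP2 that works with TRAF proteins, was lower by a smaller amount. Birc3 read 10.73, 11.05, 11.61 and 11.49 in CCR2+ RbpjiΔEC arrays and 10.90, 11.26, 10.98 and 11.21 in CCR2+ control arrays, against 11.97, 11.89, 12.14 and 12.14 in CCR2- RbpjiΔEC arrays and 11.98, 12.04, 12.13 and 12.19 in CCR2- control arrays. In RbpjiΔEC mice Birc3 differed by −0.82 and in control mice by −1.002 (SE 0.16, adjusted p = 0.000434 and 5.66e-05). The groups did not overlap, but Birc3 was not called after median centring (−0.43 in RbpjiΔEC, adjusted p = 0.124, and −0.47 in control mice, adjusted p = 0.0944) or without normalization (−0.14 and −0.41).

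Nlrp3, the sensor of the inflammasome that NF-kB primes, was higher in the CCR2+ arrays. Nlrp3 read 10.54, 9.94, 9.40 and 9.99 in CCR2+ RbpjiΔEC arrays and 9.80, 9.40, 9.83 and 9.26 in CCR2+ control arrays, against 6.69, 7.62, 7.47 and 7.67 in CCR2- RbpjiΔEC arrays and 8.10, 7.86, 7.38 and 7.07 in CCR2- control arrays. Its lowest CCR2+ array read 9.26 and its highest CCR2- array 8.10, both in control mice. Nlrp3 differed by 2.61 in RbpjiΔEC mice (adjusted p = 5.60e-07) and by 1.97 in control mice (adjusted p = 1.40e-05; SE 0.27 for each). Map3k8, which encodes the kinase TPL2, was not called (−0.02 in RbpjiΔEC, −0.17 in control mice), and in RbpjiΔEC mice it was called as higher without normalization (0.63).

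Of the remaining induced targets, Tnfaip2, a gene first found as TNF-induced in endothelium, had the largest positive difference of the 32 members in both genotypes. Tnfaip2 read 11.27, 10.90, 11.00 and 11.16 in CCR2+ RbpjiΔEC arrays and 11.39, 11.26, 11.17 and 10.97 in CCR2+ control arrays, against 6.87, 6.70, 7.08 and 7.06 in CCR2- RbpjiΔEC arrays and 7.12, 7.06, 7.42 and 7.50 in CCR2- control arrays. On the log2 scale the difference was 4.15 in RbpjiΔEC mice and 3.92 in control mice (SE 0.13, adjusted p = 1.27e-13 and 2.60e-13). The labels were separated by more than 3 units in every array. Its other probe sets differed by 2.43 and 3.19 in RbpjiΔEC and by 2.45 and 3.36 in control mice. Ier3, an early response gene linked to cell survival, was higher as well. Ier3 read 9.71, 9.81, 9.52 and 9.09 in CCR2+ RbpjiΔEC arrays and 10.22, 9.79, 9.79 and 9.77 in CCR2+ control arrays, against 7.36, 7.03, 7.54 and 7.22 in CCR2- RbpjiΔEC arrays and 7.76, 7.57, 7.15 and 7.52 in CCR2- control arrays. In RbpjiΔEC mice Ier3 differed by 2.25 and in control mice by 2.39 (SE 0.17, adjusted p = 1.03e-08 and 4.58e-09). Its groups did not overlap.

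Sod2, the mitochondrial superoxide dismutase, was higher by less than 2-fold. Sod2 read 12.08, 11.98, 11.90 and 11.78 in CCR2+ RbpjiΔEC arrays and 12.36, 11.89, 12.00 and 12.21 in CCR2+ control arrays, against 11.12, 11.27, 11.21 and 11.22 in CCR2- RbpjiΔEC arrays and 11.17, 11.14, 11.09 and 11.44 in CCR2- control arrays. The difference was 0.73 (SE 0.11) in RbpjiΔEC mice and 0.90 (SE 0.11) in control mice, with adjusted p = 4.05e-05 and 3.63e-06. The differences were 1.12 in RbpjiΔEC and 1.42 in control mice after median centring, and 1.41 and 1.47 without normalization.

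Cd83, a surface protein of activated B cells and mature dendritic cells, had the largest negative difference of the 32 members. Cd83 read 7.71, 7.67, 7.78 and 7.52 in CCR2+ RbpjiΔEC arrays and 7.96, 7.90, 7.58 and 7.88 in CCR2+ control arrays, against 11.98, 11.61, 11.28 and 11.70 in CCR2- RbpjiΔEC arrays and 11.37, 11.55, 11.41 and 12.06 in CCR2- control arrays. Cd83 differed by −3.97 in RbpjiΔEC mice (adjusted p = 3.07e-12) and by −3.77 in control mice (adjusted p = 6.30e-12; SE 0.16 for each). All 8 CCR2+ arrays lay more than 3 units below the lowest CCR2- array. Icam1, the adhesion molecule of endothelium and leukocytes, was lower in the CCR2+ arrays of RbpjiΔEC mice (−0.53, SE 0.13, adjusted p = 0.00299) and not called in control mice (−0.05). Icam1 read 9.91, 10.19, 9.61 and 9.70 in CCR2+ RbpjiΔEC arrays and 10.59, 10.14, 10.08 and 10.23 in CCR2+ control arrays, against 10.39, 10.35, 10.46 and 10.36 in CCR2- RbpjiΔEC arrays and 10.29, 10.14, 10.35 and 10.45 in CCR2- control arrays. The RbpjiΔEC arrays did not overlap between the labels, and the control arrays did. It was not called in RbpjiΔEC mice after median centring (−0.26, adjusted p = 0.301) or without normalization (0.032).

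**Figure D4:**
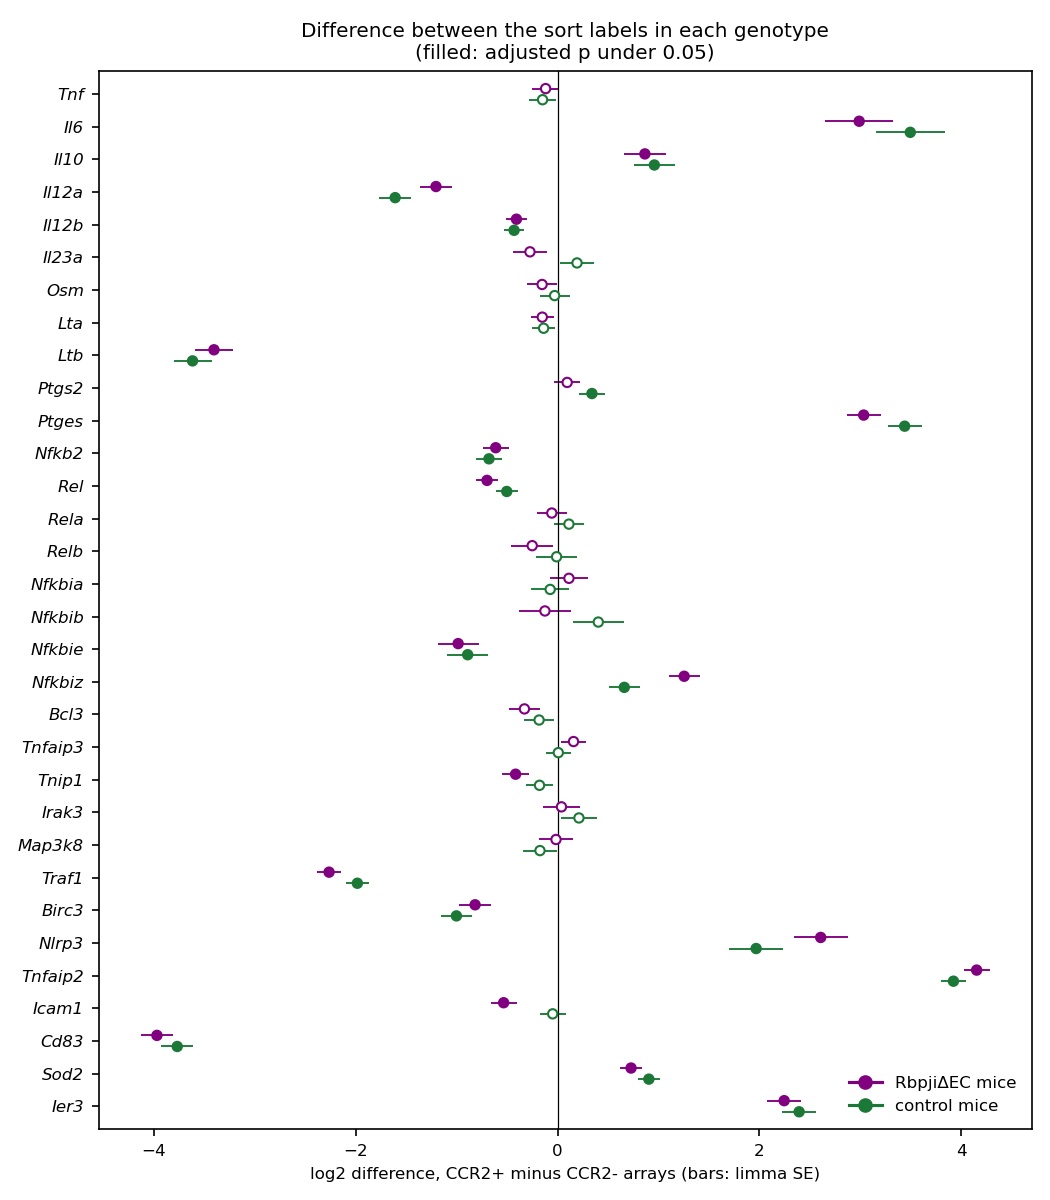
Label difference of each of the 32 measured members (rows) on the log2 scale, CCR2+ minus CCR2-, in RbpjiΔEC mice (purple) and control mice (green): bars are limma SE, and filled points have adjusted p under 0.05. The differences run between −3.97 (Cd83) and 4.15 (Tnfaip2) in RbpjiΔEC mice and between −3.77 and 3.92 for the same genes in control mice.

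Members with the promoter motif were called in both directions. Of the 8 with it 1 was higher and 5 lower in RbpjiΔEC mice, and 1 was higher and 4 lower in control mice. Of the 17 without it 5 were higher and 5 lower in RbpjiΔEC mice, and 6 and 4 in control mice. The shares of all genes were 18.1% higher and 21% lower in RbpjiΔEC mice, and 19.4% and 21.4% in control mice. Il6 and Ltb, whose promoters are printed above with the motif, had differences of opposite sign. Among the called members with the motif, only these kept their call under every alternative processing. Nfkb2, Rel, Nfkbie and Tnip1 lost it in at least 1 alternative, as did Il12b, Ptgs2, Birc3 and Icam1 among those without the motif. The counts by motif therefore depend on the processing.

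The wider pathway was described with 50 further receptors, kinases, adaptors and regulators, 41 of them measured. In RbpjiΔEC mice 9 were higher, 14 lower and 18 not called, and in control mice 8, 15 and 18, beside the 39.1% and 40.8% of all genes called. Tnfrsf1a, which encodes the main TNF receptor, averaged 11.19 in CCR2+ RbpjiΔEC and 11.29 in CCR2+ control arrays, against 8.14 in CCR2- RbpjiΔEC and 8.25 in CCR2- control arrays (differences 3.05 and 3.04, SE 0.13). Ltbr, the receptor for the lymphotoxin heterotrimer that Ltb anchors, was higher by 1.46 and 1.44 (SE 0.12), opposite in sign to Ltb. Ptger2, a receptor for prostaglandin E2, was higher by 2.50 and 2.01 (SE 0.25), the same sign as Ptges. Tnfrsf13c, the BAFF receptor of B cells, differed by −4.77 and −4.83 (SE 0.12), with means of 7.08 and 7.01 in the CCR2+ arrays against 11.85 and 11.84 in the CCR2- arrays. Traf5, another TNF receptor-associated factor, differed by −2.01 and −1.86 (SE 0.09). The third lowest was the receptor-associated kinase gene Irak2 in RbpjiΔEC mice (−1.24, SE 0.15), and in control mice Cyld, which encodes a deubiquitinase that dampens the pathway (−1.12, SE 0.08).

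The comparison of RbpjiΔEC with control mice asks what endothelial loss of Rbpj changes in these cells. In the CCR2+ arrays 0 of 32 members passed limma adjusted p under 0.05, as did 0% of all genes, and the smallest adjusted p of a member was 0.966. At an unadjusted p under 0.05 stood 2 members, Icam1 and Ier3, or 6.25%, beside 4.56% of all genes. The number of members whose groups did not overlap was 0, beside 3.39% of all genes. The differences were negative in 23 members and positive in 9, with a median of −0.13 (all genes −0.01) and a median absolute difference of 0.146 (all genes 0.0900). For the representative probe sets they ran between −0.45 (Il6) and 0.40 (Nlrp3). The other probe set of Nfkbie differed by −0.74 (exact permutation p = 0.0571), beside −0.12 for its representative one. The other probe sets of Nfkbiz differed by 0.49 and 0.10, beside 0.26.

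Icam1 had the smallest p of the members. In the CCR2+ arrays Icam1 read 9.91, 10.19, 9.61 and 9.70 in RbpjiΔEC mice (mean 9.85 ± 0.26, SD, n = 4) and 10.59, 10.14, 10.08 and 10.23 in control mice (mean 10.26 ± 0.23, n = 4). All of the values but that of RbpjiΔEC array 2 lay under the control range. The difference was −0.41 (SE 0.13, 95% interval −0.68 to −0.14, adjusted p = 0.966 by limma). It was −0.52 (adjusted p = 0.434) without RbpjiΔEC array 2 and −0.30 (adjusted p = 0.997) without control array 1.

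Ier3 was next. In the CCR2+ arrays Ier3 read 9.71, 9.81, 9.52 and 9.09 in RbpjiΔEC mice (mean 9.53 ± 0.32, SD, n = 4) and 10.22, 9.79, 9.79 and 9.77 in control mice (mean 9.89 ± 0.22, n = 4). The difference was −0.36 (adjusted p = 0.966 by limma). It was −0.21 without RbpjiΔEC array 4.

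Il6 varied most between arrays of a group. In the CCR2+ arrays Il6 read 8.49, 8.29, 10.21 and 9.99 in RbpjiΔEC mice (mean 9.24 ± 0.99, SD, n = 4) and 9.54, 9.50, 9.93 and 9.81 in control mice (mean 9.70 ± 0.20, n = 4). In RbpjiΔEC mice arrays 1 and 2 read below and arrays 3 and 4 above all control arrays, with SDs of 0.99 in RbpjiΔEC and 0.20 in control mice. The difference was −0.45 with a 95% interval of −1.17 to 0.27. It was −0.77 without RbpjiΔEC array 3 and −0.13 without RbpjiΔEC array 2. Nlrp3 differed by 0.40, and by 0.21 without RbpjiΔEC array 1. Nfkbib differed by −0.44, and by −0.62 (adjusted p = 0.607) without RbpjiΔEC array 2. The 95% interval reached 0.327 to either side of the difference at the median over the members and 0.720 for Il6, so smaller differences were not resolved.

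RNA controls differed in mean between the genotypes in these arrays. The actin 3′ to 5′ log2 difference averaged 0.386 in CCR2+ RbpjiΔEC and 0.262 in CCR2+ control arrays (exact permutation p = 0.0857), and 18S ribosomal RNA 13.1 and 13.4 (exact permutation p = 0.114). Array 2 had the lowest actin value of the RbpjiΔEC group, 0.243, and the highest 18S value, 13.54. The part of RNA quality in the genotype differences was not tested.

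In the CCR2- arrays 0 of 32 members passed limma adjusted p under 0.05, as did 0% of all genes, and the smallest adjusted p of a member was 1.00 after rounding. At an unadjusted p under 0.05 stood 2 members, Nfkbiz and Tnfaip2 (6.25%), beside 2.14% of all genes. The groups did not overlap for 1 member, Nfkbiz (3.12%), beside 1.56% of all genes. The median difference was −0.003 (all genes −0.002), with 17 negative and 15 positive, and the median absolute difference 0.0885 (all genes 0.0667).

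In the CCR2- arrays Nfkbiz read 9.25, 9.42, 9.24 and 9.32 in RbpjiΔEC mice (mean 9.31 ± 0.08, SD, n = 4) and 9.85, 9.51, 9.44 and 9.77 in control mice (mean 9.64 ± 0.20, n = 4). The difference of this IkB-zeta gene was −0.34 (SE 0.15). The highest RbpjiΔEC array, at 9.42, lay just under the lowest control array, at 9.44. In the CCR2- arrays Tnfaip2 read 6.87, 6.70, 7.08 and 7.06 in RbpjiΔEC mice (mean 6.93 ± 0.18, SD, n = 4) and 7.12, 7.06, 7.42 and 7.50 in control mice (mean 7.27 ± 0.22, n = 4). The difference was −0.35 (SE 0.13), and the groups overlapped between 7.06 and 7.08. As the mean of all their probe sets Nfkbiz differed by −0.12 and Tnfaip2 by −0.17. Actin and 18S values averaged 0.311 and 12.53 in CCR2- RbpjiΔEC and 0.345 and 12.49 in CCR2- control arrays (exact permutation p = 0.429 and 0.943).

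**Figure D5:**
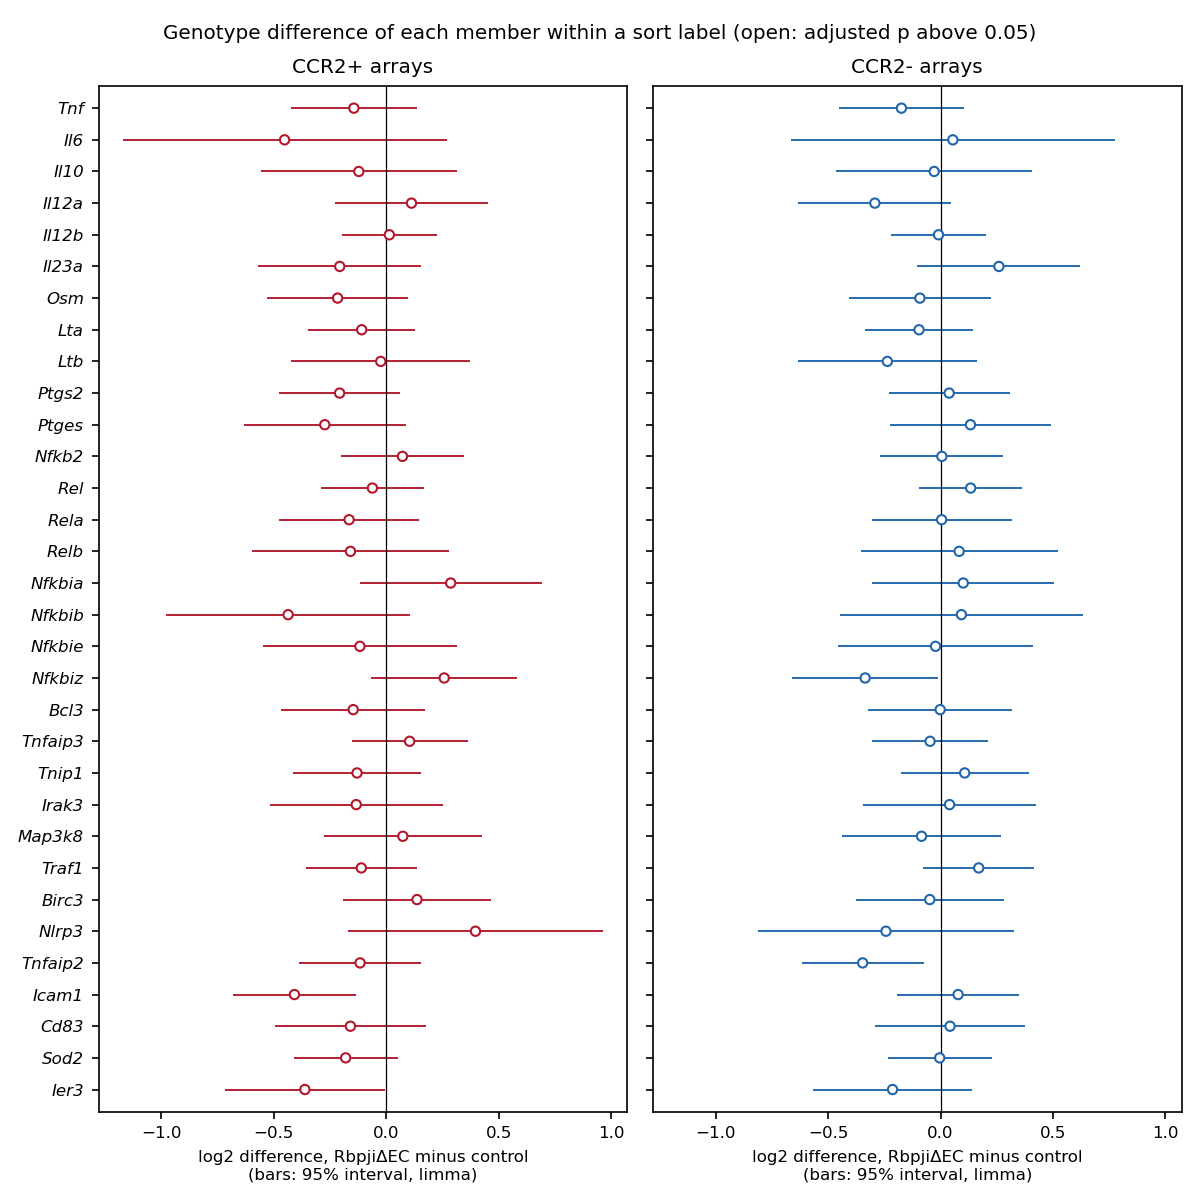
Genotype difference of each of the 32 measured members (rows) on the log2 scale, RbpjiΔEC minus control, in CCR2+ arrays (left) and CCR2- arrays (right): bars are 95% intervals from limma. All points are open because 0 members passed adjusted p under 0.05, and the intervals of Icam1 and Ier3 on the left and of Nfkbiz and Tnfaip2 on the right miss 0.

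The interaction asks whether the genotype difference in the CCR2+ arrays differs from that in the CCR2- arrays. It was called for 0 of 32 members and 0% of all genes. An unadjusted p under 0.05 was found for 2 members (6.25%), beside 3.05% of all genes. They were Nfkbiz at 0.59 (SE 0.22, 95% interval 0.14 to 1.05) and Icam1 at −0.49 (SE 0.18, 95% interval −0.87 to −0.10), both with adjusted p = 0.999 by limma. The genotype difference of Nfkbiz was 0.26 in the CCR2+ arrays (adjusted p = 0.966 by limma) and −0.34 in the CCR2- arrays. In the CCR2+ arrays it was 0.14 without control array 1 and 0.39 without control array 3. Thus the label call of Icam1 and Tnip1 in RbpjiΔEC mice, and of Ptgs2 in control mice, is not shown to differ between genotypes. The median interaction was −0.13 (all genes −0.01), with 20 negative and 12 positive, and the 95% interval reached 0.462 to either side at the median.

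The wider pathway list had 0 of 41 genes called by limma in either genotype comparison and in the interaction, with 3 at an unadjusted p under 0.05 in the CCR2+ arrays, 2 in the CCR2- arrays and 1 in the interaction, beside 4.56%, 2.14% and 3.05% of all genes. The 7 lists of cell type markers had 0 called by limma in either genotype comparison. At an unadjusted p under 0.05, beside the same shares of all genes, stood 1 of 7 dendritic cell markers in the CCR2+ arrays. In the CCR2- arrays it was 3 of 7 neutrophil markers and 1 each of the large peritoneal macrophage, monocyte, dendritic and mast cell markers. In the CCR2+ arrays monocyte and small peritoneal macrophage markers summed to 4159 to 9323 in RbpjiΔEC and 3098 to 4460 in control mice, and neutrophil markers to 869 to 953 in RbpjiΔEC and 1018 to 2942 in control mice. In the CCR2- arrays the monocyte sums were 11239 to 13474 in RbpjiΔEC and 12075 to 20863 in control mice. The neutrophil sums there were 813 to 949 in RbpjiΔEC and 835 to 5385 in control mice, and the mast cell sums 586 to 1133 in RbpjiΔEC and 824 to 962 in control mice. Their part in the genotype differences was not tested.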

How the data were processed

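The members and the lists of pathway and marker genes were chosen with earlier results of these data known. Per the labels, total RNA of sorted cells was hybridised to 16 biotin-labelled arrays, and the deposited values are linear probe set intensities. The summarization and normalization behind them are not stated in the sources used here. Intensities were turned to log2 and quantile-normalized over 16 arrays (limma 3.58.1, R 4.3.3). Of 45101 probe sets, 34958 with exactly 1 gene symbol were kept, and the one of highest mean stood for each of 18194 genes, 9012 of which had several. All 32 measured member symbols were current in RefSeq. One limma model with 4 group means gave 5 comparisons, two-sided, Benjamini-Hochberg adjusted over all genes, with a threshold of 0.05, after a check on simulated data. Single values outside that model had exact permutation tests. A bacterial trp control (3 probe sets) marks background, and no detection calls or scan dates were used. Same-group arrays correlated at 0.971 to 0.993. The labels do not say that arrays are separate animals, so p-values measure the spread between samples, which may be technical. The number of arrays limits the precision.

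Every array value is given for the members with the 4 largest called label differences each way, for the 2 smallest p of each genotype comparison and the interaction, and for Tnf, Il6, Il10 and Il12b. From the pathway list, the 3 largest called differences per direction are named. The array values of Nfkbie, Birc3 and Sod2 were added outside this rule, after they were seen. Alternatives were median centring, no normalization, normalization within a label, a filter on dim genes, the mean of all probe sets, an offset of 16 before the log, eBayes with trend and robust, array weights, the replicate number as a block, leaving out each array and, chosen after seeing the data, leaving out CCR2- control arrays 1 and 3.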

Additional observations from a re-analysis of the deposited data

Results flagged for a closer look

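In 8 of 128 gene and group combinations (32 members in 4 groups) 1 array stood apart from the other 3 by Dixon's criterion, which flags about 1 in 20 by chance. In CCR2+ RbpjiΔEC cells array 2 stood apart for 4 members. It was high for Ltb (7.11, nearest array 6.84), Nfkbib (9.03, nearest 8.31) and Bcl3 (8.25, nearest 7.89), and low for Nfkbiz (10.23, nearest 10.65). That array also had the lowest actin 3′ to 5′ difference and the highest 18S value of its group. In CCR2+ control cells array 1 was high for Ier3 (10.22, nearest 9.79). In CCR2- control cells array 4 was low for Il23a (6.26, nearest 6.67) and high for Tnip1 (9.79, nearest 9.52), and array 1 was high for Irak3 (10.97, nearest 10.72). The part of RNA quality in these values was not tested.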

How the results depend on the processing

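Over 25 alternatives the number of members called between the labels was 16 to 21 in RbpjiΔEC mice and 14 to 19 in control mice. In RbpjiΔEC mice 12 of the 19 and in control mice 12 of the 18 called members kept their call in every alternative that measured them. Without normalization between arrays the median of all genes stood at 0.23 in the label comparison in RbpjiΔEC mice, in place of −0.03, and at −0.16 in the CCR2- genotype comparison, in place of −0.002. With values not corrected for that shift, this setting gave 13 members higher and 4 lower in RbpjiΔEC mice, and 4 lower in control mice. Among members called with or without normalization, it turned the sign of Rela (0.57), Tnip1 (0.073), Map3k8 (0.63) and Icam1 (0.032) in RbpjiΔEC mice. Sign changes of members called in neither setting were not counted. Nfkbia turned to 0.49 in control mice as the mean of its probe sets. In both genotype comparisons and the interaction 0 members were called in every alternative. Of all genes, the CCR2+ genotype comparison called 1 above the lowest tercile of intensity, 2 with the mean of probe sets, 1 with array weights, 1 with the replicate block, and 0 to 2 when single arrays were left out. The CCR2- one called 0 to 1 when single arrays were left out. Without CCR2- control arrays 1 and 3 it called 1, as did the interaction. The interaction called 0 when single arrays were left out. The replicate block changed no member's call. Each block joined the arrays of all 4 groups with the same number, so mice of both genotypes. It therefore cannot tell whether the labels are paired within a genotype. Deviations of arrays with the same number correlated at −0.03 to 0.40 between the labels, with 4 of 8 over 0.1 and the own number best in 6 of 8, and at −0.38 to 0.19 between the genotypes, with 3 of 8 over 0.1 and the own number best in 2 of 8. Not every pair passed 0.1 and the labels name no shared animal or batch, so the numbers were not taken as pairs. The own number was best more often between the labels than between the genotypes. A pairing of CCR2+ and CCR2- arrays by number within a genotype was not tested. The label comparisons and the interaction treat all arrays as separate samples. The trp range limits what can be said of Ptgs2 in all arrays and of Il6 and Il10 in the CCR2- arrays. Group means of Il23a lay above that range. Its CCR2+ control arrays 2 and 3, CCR2+ RbpjiΔEC array 3 and CCR2- control array 4 read in or under it.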
